A study of Mus musculus with 24 samples.

Results

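The genes described here are the amyloid precursor family, App, Aplp1 and Aplp2, and 2 proteases that cut its members, Bace1 and Psen2. They are 5 of 19962 targets measured in mouse brain with GeoMx, a spatial assay that counts a sequence tag for each probe released from a marked region of a tissue section. The members were chosen by name, and each value is a multiple of that region's negative probe, which matches no mouse transcript. A multiple of 1 is therefore background.

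The series has 24 regions, 4 in each of 6 groups. The 6 groups cross sex with genotype, which was WT, MG-cKO or BMM-cKO. The series title names Lyn kinase in macrophages and sex-specific neuroinflammation after SAH. In the design text WT appears as WT-SAH, and no other treatment is stated for the knockout groups. The labels spell out none of the abbreviations SAH, MG and BMM, and the age of the animals, the Cre drivers and the number of animals are not given in the sources used here. Staining for Tmem119 and for Iba-1 guided the choice of regions, whose labelled cell type is macrophage. No label links a region to its animal, so any regions from the same animal make the p-values over regions too small, in every test below. Scan 2 held the male and scan 3 the female regions, and sex cannot be told apart from scan.

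The amyloid precursor protein spans the membrane once and is cut by competing proteases. An alpha-secretase cuts within the amyloid-beta sequence, whereas BACE1, the beta-secretase, cuts at its start, and gamma-secretase, with a presenilin as its catalytic subunit, then releases the peptide. APLP1 and APLP2 are close relatives that lack the amyloid-beta sequence and are cut by the same enzymes. In brain, Aplp1 is mainly neuronal, App and Aplp2 are made by many cell types, and Psen2, a presenilin gene, is known for its part in microglia.

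Promoter sequences show what the 250 bases before the start sites of these genes share. RefSeq (GRCm38.p6) gave 5 start sites for 4 of the 5 members, all on the minus strand. Bace1 had no entry. Each line runs 5′ to 3′ on the strand of the gene and ends at the base before the start site. Capitals mark GC boxes (GGGCGG) and CCAAT boxes (CCAAT), each searched on both strands.
App, chr16:85173708-85173957: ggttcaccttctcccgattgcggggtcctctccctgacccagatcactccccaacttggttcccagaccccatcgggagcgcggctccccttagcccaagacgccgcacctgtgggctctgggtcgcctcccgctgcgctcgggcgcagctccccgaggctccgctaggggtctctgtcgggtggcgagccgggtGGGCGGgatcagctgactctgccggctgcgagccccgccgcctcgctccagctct
Aplp1, chr7:30445583-30445832: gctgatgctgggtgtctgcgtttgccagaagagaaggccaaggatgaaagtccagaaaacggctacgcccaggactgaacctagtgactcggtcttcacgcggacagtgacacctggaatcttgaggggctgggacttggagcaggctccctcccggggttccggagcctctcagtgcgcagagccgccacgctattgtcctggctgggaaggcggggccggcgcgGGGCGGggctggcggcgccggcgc
Aplp2, chr9:31211849-31212098: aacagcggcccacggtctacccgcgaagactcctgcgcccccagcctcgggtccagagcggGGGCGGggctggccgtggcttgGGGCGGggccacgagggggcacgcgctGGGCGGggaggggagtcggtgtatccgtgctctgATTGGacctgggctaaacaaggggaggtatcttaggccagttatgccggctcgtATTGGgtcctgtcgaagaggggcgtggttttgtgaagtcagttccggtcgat
Psen2, first start site, chr1:180256301-180256550: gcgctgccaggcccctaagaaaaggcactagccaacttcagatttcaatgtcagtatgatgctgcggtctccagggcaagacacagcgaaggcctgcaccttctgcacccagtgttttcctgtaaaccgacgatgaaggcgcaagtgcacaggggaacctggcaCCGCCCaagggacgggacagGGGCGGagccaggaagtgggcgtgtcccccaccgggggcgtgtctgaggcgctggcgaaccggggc
Psen2, second start site, chr1:180245951-180246200: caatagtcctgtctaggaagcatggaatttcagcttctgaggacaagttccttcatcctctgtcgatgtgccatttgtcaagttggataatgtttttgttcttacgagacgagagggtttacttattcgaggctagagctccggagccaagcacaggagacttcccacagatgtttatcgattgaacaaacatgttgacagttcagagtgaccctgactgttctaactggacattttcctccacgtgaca

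The App promoter was 70.8% G and C, that of Aplp1 66.0% and that of Aplp2 66.4%, against a median of 52.4% over 32851 mouse promoters. All 3 held a GC box, with 3 in Aplp2, which also held 2 CCAAT boxes. A GC box was present in 32.7% and a CCAAT box in 33.8% of all promoters. The first Psen2 start site had 62.8% G and C with 2 GC boxes, and the second had 44.8% and none. A TATA box (TATAAA) was in none of the 5 and in 12.4% of all promoters, and a cAMP response element (TGACGTCA) in none and in 1.55%. The second Psen2 start site alone held an E-box (CACGTG), present in 6.02% of all promoters. No matches overlapped. Such matches describe letters and show no binding.

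Depth limited what could be measured for each member. Recovered tags totalled 1839154 to 10779960 per region. App had 589 to 4110 tags per region, Aplp1 449 to 1670, Aplp2 226 to 1085, Bace1 98 to 576 and Psen2 95 to 655. At the lowest of these tag numbers the counting error was 4.12% for App and 10.3% for Psen2, for counting alone. App and Aplp1 exceeded 2 times the negative probe in 24 of 24 regions and Aplp2 in 22. Bace1 and Psen2 exceeded it in 0 of 24 regions, so their levels lay close to background and a fold change understates any change of the transcript. Lyn itself lay between 0.878 and 1.22 times the negative probe in all regions, with group means of at most 1.15. The files do not say whether its probe lies in the deleted part, so Lyn does not check the genotype labels here.

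Marker genes differed between groups in every comparison within a sex except MG-cKO against WT males, where no tested marker passed. Tmem119, a marker used in the staining, averaged at or below the negative probe in every group. The other 10 of 11 microglia markers averaged above it in every group, and the 11 summed to 13.6 to 20.0 over all regions. Of 6 markers of infiltrating macrophages, none of which was bright enough to be tested, 5 or 6 averaged at or below the negative probe in all groups but BMM-cKO males (3 of 6), where their summed level was 5.53 to 5.91 against 4.65 to 5.78 in the other groups. Summed over 8 genes, markers of striatal neurons reached 16.2 to 33.1 in WT females and 10.4 to 10.7 in MG-cKO females. Summed over 6 genes, markers of forebrain excitatory neurons reached 8.20 to 11.2 in WT females and 34.0 to 57.5 in MG-cKO females. BMM-cKO female region 3 stood apart: Enpp2, an enzyme abundant in choroid plexus, was at 104 times the negative probe there and at 1.16 to 2.33 in the other 23 regions. Fewer cells of a type and less RNA per cell cannot be told apart in such regions. The part of where in the brain each region lay was not tested.

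App, the precursor itself, had the strongest signal over background of the 5. Only 4 targets had a higher mean multiple of the negative probe, although probes differ in yield and this is no order of transcript abundance. App was 5.91, 7.33, 9.16 and 5.58 in WT male regions 1 to 4 and 4.83, 8.24, 8.49 and 7.25 in MG-cKO male regions. In BMM-cKO male regions it was 3.49, 3.89, 3.26 and 3.95. The WT and MG-cKO males covered the same range, and all 4 BMM-cKO males lay below it.

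In females App was 6.98, 4.78, 6.91 and 5.73 in WT regions. It was 18.2, 10.6, 19.9 and 19.2 in MG-cKO regions and 9.76, 9.51, 14.6 and 12.3 in BMM-cKO regions. All 8 knockout regions lay above all 4 WT regions. MG-cKO region 2 lay far below the other MG-cKO regions and within the range of BMM-cKO regions. By group mean the order from the top was MG-cKO females (17.0 ± 4.29, SD, n = 4), BMM-cKO females (11.5 ± 2.37), MG-cKO males (7.20 ± 1.67), WT males (6.99 ± 1.63), WT females (6.10 ± 1.05) and BMM-cKO males (3.65 ± 0.328). Of neighbours in this order, BMM-cKO females were separate from MG-cKO males, and WT females from BMM-cKO males. The other neighbours overlapped.

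**Figure D1:**
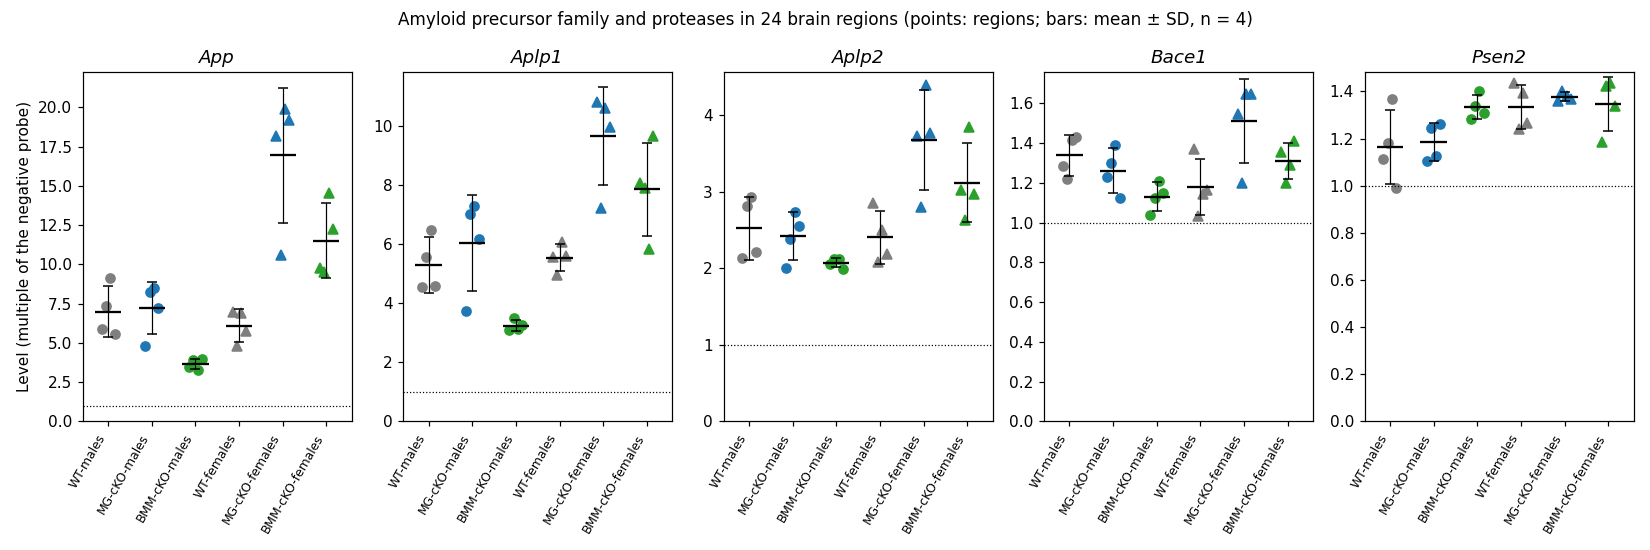
Level of each member as a multiple of the negative probe (vertical axes, linear from 0) in 24 regions, by group; points are regions, lines and bars are mean ± SD over 4 regions, and the dotted line is the negative probe. App runs from 3.65 ± 0.328 in BMM-cKO males to 17.0 ± 4.29 in MG-cKO females, whereas Bace1 and Psen2 stay below 2 in every region.

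Aplp1, the mainly neuronal relative of App, followed a similar order with a smaller range. It was 4.54, 5.59, 6.50 and 4.58 in WT male regions and 3.73, 7.02, 7.32 and 6.17 in MG-cKO male regions. In BMM-cKO males it was 3.08, 3.50, 3.14 and 3.27. Again the BMM-cKO males lay below every other region, and the other male groups overlapped.

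Among females Aplp1 was 5.56, 4.96, 6.07 and 5.60 in WT, and 10.8, 7.23, 10.6 and 9.99 in MG-cKO regions. In BMM-cKO regions it was 8.07, 7.92, 5.84 and 9.68. The MG-cKO regions were separate from WT. BMM-cKO region 3, with the Enpp2 signal, fell within the WT range for Aplp1, while it was the highest BMM-cKO region for App. Without region 3, the BMM-cKO females averaged 8.55 ± 0.975 for Aplp1 and 10.5 ± 1.52 for App (n = 3).

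Aplp2, the widely expressed relative, was lower over background and moved less. Its regions ranged from 2.13 to 2.93 in WT males, 2.00 to 2.73 in MG-cKO males and 1.99 to 2.12 in BMM-cKO males. Those of WT females ranged from 2.08 to 2.85, of BMM-cKO females from 2.63 to 3.84 and of MG-cKO females from 2.80 to 4.39. No neighbours in the order of group means were separate, and the MG-cKO female mean of 3.67 ± 0.655 was the highest of the 6.

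Bace1, the beta-secretase that makes the first amyloid-forming cut, stayed between 1.04 and 1.65 times the negative probe. Its group means ran from 1.13 ± 0.0723 in BMM-cKO males to 1.51 ± 0.212 in MG-cKO females, and all neighbours in the order overlapped. Psen2, a catalytic subunit of gamma-secretase, ran from 0.991 in WT male region 4 to 1.44 in WT female region 1. Its order differed from that of the precursors: BMM-cKO males (1.33 ± 0.0509) were separate from and above MG-cKO males (1.18 ± 0.0807), and WT males were last (1.16 ± 0.158). The 3 female groups averaged 1.33 to 1.38.

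Differences were tested with limma on log2(value + 1), each region centred on its median over 9981 tested targets, and called at 0.05 after Benjamini-Hochberg adjustment. The comparison of MG-cKO with WT males asks whether the precursor family differed between these groups in males. Here 0 of 5 members passed, where 0.481% of all tested targets did. App changed by 0.05 ± 0.25 on the log2 scale (SE; 95% interval -0.45 to 0.56) and Aplp1 by 0.18 ± 0.20 (-0.24 to 0.59). For Aplp2 the interval was -0.29 to 0.21, for Bace1 -0.25 to 0.11 and for Psen2 -0.11 to 0.20. None of the 39 other tested genes of the amyloid pathway passed.

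In females the 3 precursor genes were higher in MG-cKO than in WT regions. App was 2.50-fold higher (log2 1.32 ± 0.25 SE, limma adjusted p = 0.000179), Aplp1 1.58-fold (0.66 ± 0.20, adjusted p = 0.0141) and Aplp2 1.39-fold (0.48 ± 0.12, adjusted p = 0.00429). Thus 3 of 5 members were higher and 0 lower, where 17.9% of tested targets were higher and 11.9% lower. The change of App was larger in size than that of 99.4% of tested targets. Only 4 targets had a stronger signal over background than App. Fold changes are understated near background, so this rank also depends on signal strength. Bace1 changed by 0.22 ± 0.09 (adjusted p = 0.0518) and Psen2 by -0.08 ± 0.07 (adjusted p = 0.445) and did not pass. Leaving out any 1 of the 24 regions kept all 3 precursor calls, with App at 1.22 to 1.51. With all 19962 targets tested, Aplp1 did not pass (0.68, adjusted p = 0.0622). With the negative probe as the scale, Bace1 passed (0.35, limma adjusted p = 0.00597), where the median target rose by 0.105. Bace1 also passed in 6 of the 24 omissions. Without MG-cKO female region 2 its change was 0.30 (adjusted p = 0.00845), and without WT female region 1, whose library name has the prefix of the male and not of the other female libraries, it was 0.29 (adjusted p = 0.0163).

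The 3 rises depend on how regions are scaled. After quantile normalization, which gives every region the same spread of values, App changed by 0.23 (limma adjusted p = 0.257) and Aplp2 by 0.08 (adjusted p = 0.586), and Aplp1 turned to -0.18 (adjusted p = 0.39). App was the 6th to 9th strongest of 19962 targets in MG-cKO female regions and the 8th to 19th in WT female regions. In MG-cKO female regions 6.91% ± 1.78 of targets exceeded 2 times the negative probe, against 3.20% ± 0.370 in WT females. Pan-neuronal markers summed to 48.1 to 84.2 over 10 genes in MG-cKO and 19.4 to 31.4 in WT female regions, and 9 of the 10 rose (median log2 1.00, against -0.02 for all tested targets). Forebrain excitatory markers rose in 4 of 4 (1.88), striatal markers fell in 6 of 6 (-1.39) and microglia markers fell in 10 of 10 (-0.42), while 3 of 8 astrocyte markers rose. The part of these differences in the rises of App, Aplp1 and Aplp2 was not tested. With the negative probe subtracted, the changes were 1.48 for App, 0.78 for Aplp1 and 0.79 for Aplp2.

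**Figure D2:**
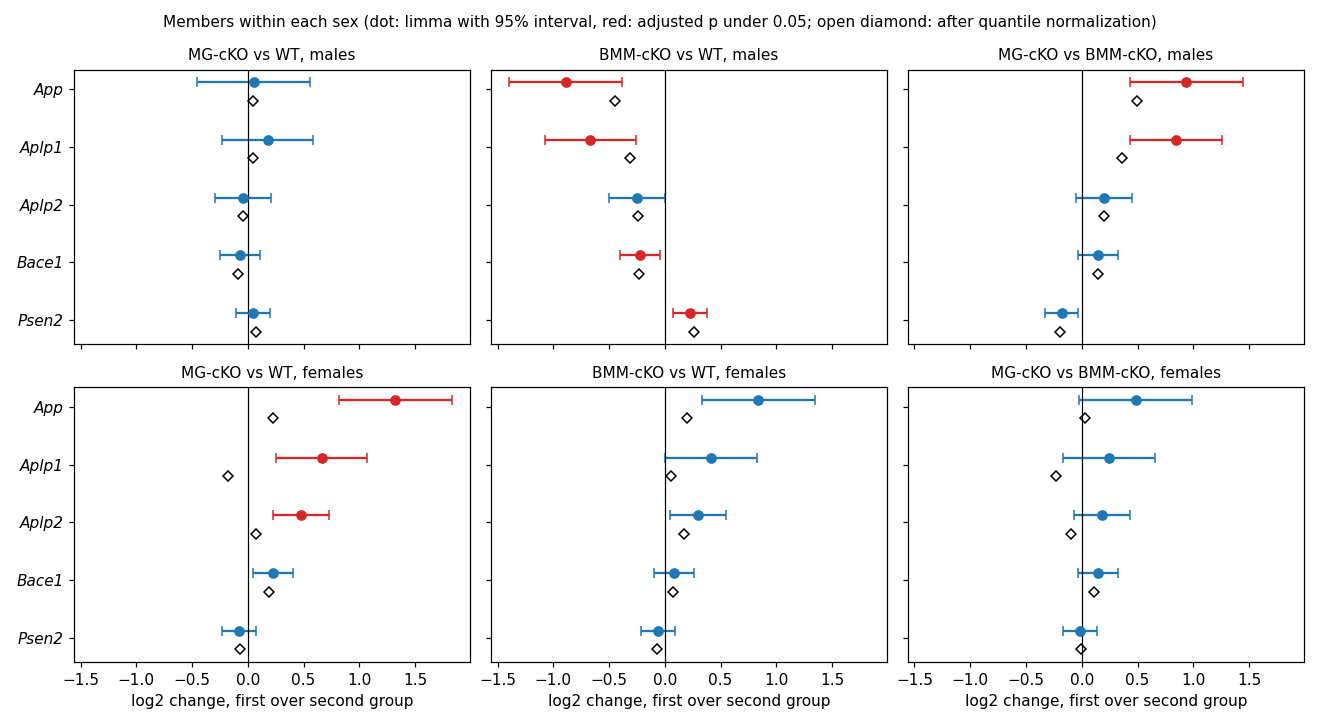
log2 change of each member (horizontal axes) in 6 comparisons within a sex; dots are limma estimates with 95% intervals, red where adjusted p is under 0.05, and open diamonds are changes after quantile normalization. App, Aplp1 and Aplp2 rose in MG-cKO females by 1.32, 0.66 and 0.48, and their diamonds lie at 0.23, -0.18 and 0.08; on the deposited scale the falls in BMM-cKO males turn into rises.

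In males BMM-cKO regions had less App and Aplp1 signal than WT regions. Recovered tags did not overlap, at 6672788 to 10779960 in BMM-cKO and 1839154 to 4589359 in WT male regions. The part of depth in the differences was not tested. App was 1.85-fold lower (log2 -0.89 ± 0.25 SE, limma adjusted p = 0.00353) and Aplp1 1.59-fold lower (-0.67 ± 0.20, adjusted p = 0.00664). Bace1 was lower by a log2 change of -0.22 ± 0.09 (adjusted p = 0.0353), and Psen2 was higher by 0.23 ± 0.07 (adjusted p = 0.0118). Aplp2 changed by -0.24 ± 0.12 (adjusted p = 0.0924). So 3 of 5 members were lower and 1 higher, in a comparison where 25.7% of tested targets were lower and 27.8% higher. The median target was 1.49 higher (log2) in BMM-cKO males as deposited, and on that scale the 3 falls turned into rises of 0.61 for App, 0.83 for Aplp1 and 1.28 for Bace1.

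The falls of App and Aplp1 held whichever region was left out, with App at -0.98 to -0.77. Neither passed when all 19962 targets were tested (App -0.82, adjusted p = 0.0532; Aplp1 -0.60, adjusted p = 0.0525), and Aplp1 did not after quantile normalization (-0.32, adjusted p = 0.058). The calls of the near-background proteases were less stable. Psen2 did not pass without WT male region 4, where it was lowest (0.16, adjusted p = 0.0738). Bace1 did not pass without WT male region 1, 3 or 4 or BMM-cKO male region 1 or 2 (-0.22 to -0.18, adjusted p = 0.0568 to 0.12), nor with all targets tested (-0.15, adjusted p = 0.174). Aplp2 passed after quantile normalization (-0.24, adjusted p = 0.0248) and with the 2 groups fitted alone (adjusted p = 0.0223). The middle 95% of 317 tested probes for olfactory, vomeronasal, taste and trace amine receptors and keratin-associated proteins, of little known use in brain, had changes of between -0.49 and 0.76 here. The changes of Bace1 and Psen2 lie within that range and that of App beyond it. The median of these probes was 0.18, close to the rise of Psen2. In MG-cKO against WT females their middle 95% lay between -0.37 and 0.16. There App (1.32) and Bace1 (0.22, not past the threshold) lay above that range and Psen2 (-0.08) within it. Pan-neuronal markers summed to 16.6 to 17.9 in BMM-cKO and 24.2 to 33.8 in WT male regions, with 6 of 10 lower and 0 higher. Inhibitory neuron markers were lower in 3 of 3, excitatory markers in 2 of 4, astrocyte markers in 3 of 8 and oligodendrocyte markers in 2 of 8. Microglia markers were lower in 5 and higher in 2 of 10, striatal markers lower in 2 and higher in 1 of 6. Endothelial markers were higher in 1 of 5. The part of these differences in the falls was not tested.

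BMM-cKO females had more App than WT females in every region, but no member passed (0 of 5, where 2.34% of tested targets passed). App was 1.79-fold higher (log2 0.84 ± 0.25 SE, 95% interval 0.33 to 1.34, limma adjusted p = 0.0664). For Aplp1 the change was 0.41 (interval 0.00 to 0.82) and for Aplp2 0.30 (0.05 to 0.55). App passed without MG-cKO male region 1 (adjusted p = 0.0405) or MG-cKO female region 2 (adjusted p = 0.0434), which enter through the shared spread, and in the fit without an intensity trend (adjusted p = 0.00677). Without BMM-cKO female region 3 it was 0.73 (adjusted p = 0.107). Of pan-neuronal markers 0 of 10 passed here (median 0.09), while 5 of 6 striatal (median -1.21), 3 of 3 inhibitory neuron (-1.05) and 2 of 10 microglia markers (-0.25) were lower, and 1 of 4 excitatory and 1 of 8 astrocyte markers higher. Their part in the change of App was not tested.

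The knockouts differed from each other in males. Recovered tags did not overlap here either, at 2423752 to 3736541 in MG-cKO and 6672788 to 10779960 in BMM-cKO males. The part of depth was not tested. MG-cKO males had 1.92-fold more App (log2 0.94 ± 0.25 SE, limma adjusted p = 0.00398) and 1.79-fold more Aplp1 (0.84 ± 0.20, adjusted p = 0.00185) than BMM-cKO males. These were 2 of 5 members higher and 0 lower, against 18.1% and 20.4% of tested targets. Only 11 tested targets had a larger change than App and 29 than Aplp1, ranks that also depend on signal strength over background. On the deposited scale both turned, to -0.25 and -0.35. Pan-neuronal markers were higher in 4 of 10 and lower in 0 (median 0.57), microglia markers higher in 4 and lower in 1 of 10, and astrocyte markers higher in 2 of 8; their part in the differences of App and Aplp1 was not tested. App did not pass with all targets tested (0.88, adjusted p = 0.0541), and Psen2 missed the threshold (-0.18, adjusted p = 0.0538). Psen2 passed as lower in MG-cKO after quantile normalization (limma adjusted p = 0.0491) and with all targets tested (0.0278). It also passed with a pseudocount of 10 (0.047), with the 2 groups fitted alone (0.0237) and in 5 of 24 omissions of 1 region. In females 0 of 5 passed, where 14.6% of targets did, and the change of App was 0.48 (interval -0.02 to 0.99). The comparisons with WT share the WT regions, and those with a knockout share that knockout's regions.

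Within a genotype, females and males differed in scan as well as sex. In WT regions 1 of 5 members was higher in females, where 23.2% of tested targets were. This was Psen2, by 0.19 ± 0.07 (limma adjusted p = 0.0458), a call lost without any 1 of 9 of the 24 regions, 5 of them WT (adjusted p = 0.0657 to 0.208) and 4 BMM-cKO male regions (0.0511 to 0.0538). App differed by -0.20 (interval -0.71 to 0.30) in WT. In MG-cKO, App was 2.10-fold (adjusted p = 0.00224) and Aplp2 1.35-fold (adjusted p = 0.0109) higher in females, 2 of 5 against 13.7% of targets, and Aplp1 missed the threshold (0.54, adjusted p = 0.055). After quantile normalization neither passed, with App at 0.08 and Aplp2 at -0.04, and Aplp2 also did not without MG-cKO female region 3 (0.36, adjusted p = 0.0597). Between these groups pan-neuronal markers were higher in 6 of 10, excitatory markers in 4 of 4 (median 2.31), and microglia markers lower in 9 of 10 (-0.61), and their part was not tested. In BMM-cKO, App was 2.87-fold (adjusted p = 0.000164), Aplp1 2.20-fold (adjusted p = 0.00036) and Aplp2 1.38-fold (adjusted p = 0.011) higher in females, 3 of 5 against 11.2%. On the deposited scale Aplp1 and Aplp2 turned, to -0.06 and -0.74, and Aplp2 did not pass after quantile normalization (0.25, adjusted p = 0.0507). Here 1 of 10 pan-neuronal and 2 of 4 excitatory markers were higher and 4 of 10 microglia markers lower. Recovered tags were 6672788 to 10779960 in BMM-cKO male and 1910094 to 7014700 in BMM-cKO female regions, and the part of depth was not tested.

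The difference between sexes in the knockout effects was tested as an interaction. The MG-cKO effect was larger in females by 1.27 ± 0.35 on the log2 scale for App (limma adjusted p = 0.00866) and by 0.52 ± 0.17 for Aplp2 (adjusted p = 0.0268), 2 of 5 members where 14.2% of targets were higher. The BMM-cKO change in females minus that in males was 1.73 ± 0.35 for App (limma adjusted p = 0.000279) and 1.08 ± 0.28 for Aplp1 (adjusted p = 0.00304). It was 0.54 ± 0.17 for Aplp2 (adjusted p = 0.0123) and 0.30 ± 0.12 for Bace1 (adjusted p = 0.046). All 4 had changes of opposite sign, negative in males and positive in females, where none passed (App -0.89 and 0.84). For Psen2 the difference was -0.29 ± 0.10 (adjusted p = 0.0249). These were 4 of 5 members higher and 1 lower, against 21.5% and 24.2% of targets. Quantile normalization left 0 members past the threshold for MG-cKO (App 0.18, adjusted p = 0.54) and for BMM-cKO kept App (0.64, adjusted p = 0.00868) and Aplp2 (0.42, adjusted p = 0.0093) but not Aplp1 (0.37, adjusted p = 0.127). The BMM-cKO interaction of Bace1 did not pass with all targets tested (adjusted p = 0.155) or with no intensity trend (0.0519), nor that of Psen2 with the negative probe as the scale (0.182). On that scale the MG-cKO interaction of Bace1 passed (0.44, limma adjusted p = 0.019). With all targets tested, the MG-cKO interaction of App did not pass (1.28, adjusted p = 0.0751). Leaving out 1 region at a time, that of Aplp2 was lost in 5 of 24 cases, and the BMM-cKO interactions of Bace1 and Psen2 in 13 and 4. On the deposited scale the BMM-cKO interactions of Aplp2 and Bace1 turned, to -0.32 and -0.56. The part of depth in the interactions was not tested.

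Ratios of members within a region do not change when a region is multiplied by a factor. The ratio of App to Aplp2 had a geometric mean of 4.54 in MG-cKO females, against 2.53 in WT females, and BMM-cKO females lay between them at 3.68. Male WT regions averaged 2.75 and MG-cKO regions 2.93, above the BMM-cKO regions at 1.76. On the log2 scale MG-cKO females exceeded WT females by 0.84, BMM-cKO females exceeded WT females by 0.54, and BMM-cKO males lay below WT males by a log2 difference of -0.65. In each of these 3 comparisons the 4 regions of one group were separate from the 4 of the other. Over all regions Aplp2 lay at 1.99 to 4.39 times the negative probe and App at 3.26 to 19.9. Background thus takes a larger share of the Aplp2 signal, and the shifts of this ratio cannot be read as those of a transcript ratio.

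The ratio of App to Aplp1 rose from 1.09 in WT to 1.72 in MG-cKO females, with separate regions, and reached 1.46 in BMM-cKO females, where regions overlapped with WT. BMM-cKO female region 3 had the highest log2 ratio of App to Aplp1 of all regions (1.32). Among female regions it had the lowest log2 ratio of Aplp1 to Aplp2 (0.60), and BMM-cKO male regions reached down to 0.57. Without it the App to Aplp1 difference between BMM-cKO and WT females fell from 0.42 to 0.17. The signal of Bace1 relative to App was 0.194 in WT females, 0.0910 with MG-cKO and 0.116 with BMM-cKO, and 0.310 in BMM-cKO males against 0.195 in WT males. Bace1 lay near background in all of these regions, so this ratio mostly falls where App rises and rises where App falls. Its shifts cannot be read as a change of Bace1 transcripts relative to App. The regions were separate in 12 of 24 tests of 4 ratios over 6 comparisons. Each of these 12 had an exact two-sided permutation p of 0.0286, the smallest that 4 against 4 regions can give, and 0.0571 after adjustment over the 24 tests, so none passed. How often ratios of other pairs of targets were separate was not tested, so the count cannot be read as particular to the members.

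**Figure D3:**
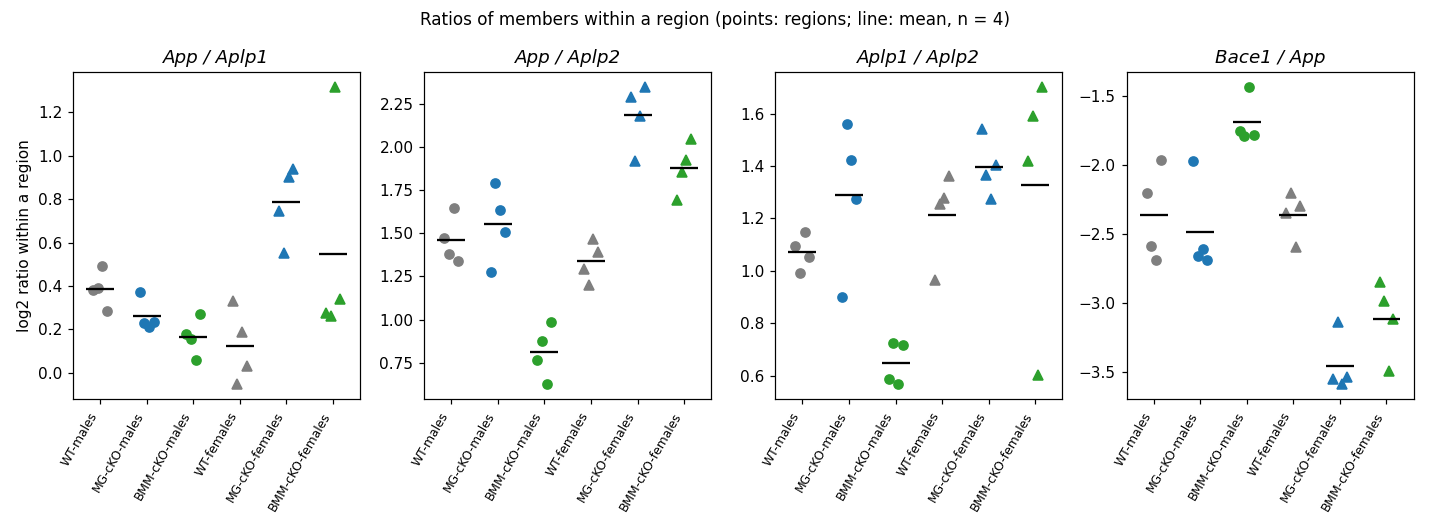
log2 ratio of 2 members in the same region (vertical axes) for 4 pairs, by group; points are regions and lines are means of 4 regions. The App to Aplp2 ratio of MG-cKO female regions (mean 2.18) lies above that of WT females (1.34), and the ratio in BMM-cKO males (0.81) below that of WT males (1.46).

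Other genes of the amyloid pathway were read from a list of 58, of which 57 were measured and 39 tested besides the members. In MG-cKO against WT females 14 of 39 were higher and 3 lower (median 0.19, against -0.02 for all tested targets, of which 17.9% were higher and 11.9% lower). By role, 4 of 6 cytoplasmic adaptors and 6 of 12 trafficking genes rose. Apbb1, an adaptor that binds the cytoplasmic tail of APP, went from 1.51 ± 0.116 in WT to 4.02 ± 0.915 in MG-cKO regions (2.39-fold, limma adjusted p = 4.64e-08). Apba2, another adaptor of the tail, rose 1.80-fold, and Rtn3, a reticulon that binds BACE1, 2.07-fold. The sorting receptor Sort1 rose 1.68-fold, Itm2b, a membrane protein that binds APP, 1.79-fold, and Sez6l2, of a family of BACE1 substrates, 1.67-fold. These 6 calls held without each region in turn and under each alternative in which the gene was tested. Sort1 was not tested with the negative probe subtracted. Apoe (0.06), Cst3 (-0.35) and Clu (0.36), which encode peptide-binding proteins with strong signal here, did not pass.

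In BMM-cKO against WT males 17 of 39 were lower and 4 higher (median -0.24, against -0.01 for all tested targets, of which 25.7% were lower and 27.8% higher). Of 7 lipoproteins and peptide-binding proteins 4 were lower and 1 higher. Itm2c was 1.80-fold lower (limma adjusted p = 0.00178), Apoe, the main lipid carrier of brain, 1.76-fold (adjusted p = 0.00946) and cystatin C, encoded by Cst3, 1.69-fold (adjusted p = 0.00508). Scn2b, a sodium channel subunit cut by BACE1, was 1.57-fold lower and below the negative probe in BMM-cKO males (0.814 ± 0.0843), Sez6l2 1.54-fold and Apbb1 1.53-fold lower. All 6 turned into rises on the deposited scale, and Apoe did not pass with all targets tested (adjusted p = 0.0717). Clu (-0.31), Apba1 (-0.17) and Apba2 (-0.25) did not pass.

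Another secretase gene was named after its values were seen. Adam10, the main alpha-secretase of neurons, was higher by 0.60 ± 0.11 (limma adjusted p = 4.07e-05) in BMM-cKO than in WT males, which lies within the range of -0.49 to 0.76 of the receptor and keratin-associated probes.

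**Figure D4:**
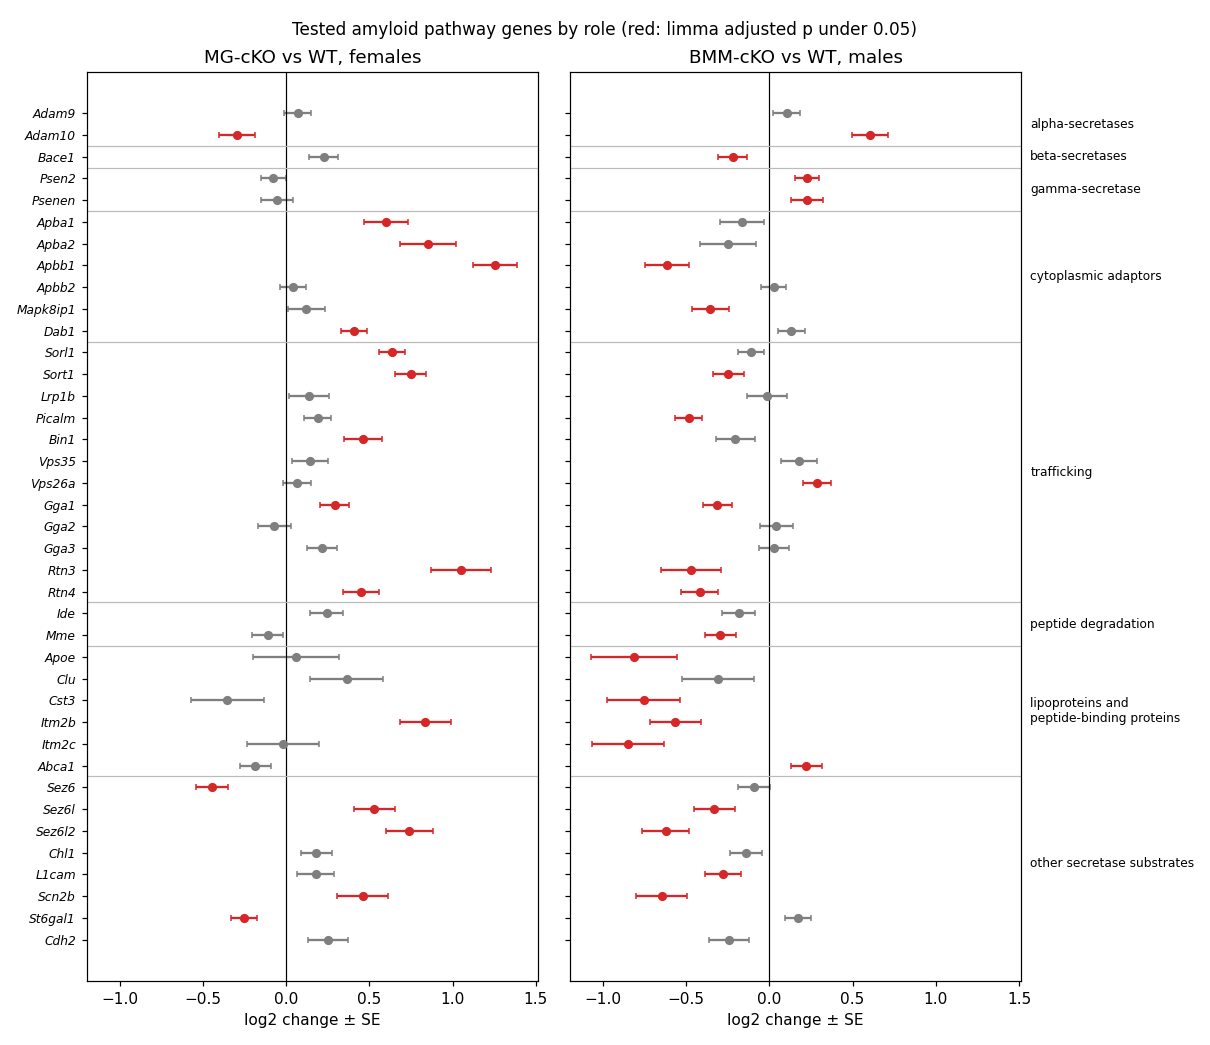
log2 change ± SE (horizontal axes) of tested genes of the amyloid pathway list, Bace1 and Psen2 included, by role, for MG-cKO against WT females and BMM-cKO against WT males; red points have adjusted p under 0.05. Apbb1 and Rtn3 lie farthest to the right in females at 1.25 and 1.05, and Itm2c and Apoe farthest to the left in males at -0.85 and -0.81, where changes are relative to the median target and turn on the deposited scale.

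The remaining comparisons moved fewer genes of the list. In BMM-cKO females 2 of 39 were higher and 1 lower, against 1.35% and 0.992% of all tested targets. Clu, which encodes the chaperone clusterin, was 1.91-fold higher (limma adjusted p = 0.0218) at 5.94 ± 3.90 times the negative probe, and region 3 alone reached 11.7. Sez6 was 1.54-fold lower (adjusted p = 0.000402) and turned on the deposited scale (0.02). With the 2 groups fitted alone 0 genes of the list passed, and Clu also did not pass without WT female region 2 or 4 (adjusted p = 0.0722 and 0.0965). Apoe (0.62), Cst3 (-0.36) and Rtn3 (0.32) did not pass.

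Between the knockouts in males 14 of 39 were higher in MG-cKO and 2 lower, against 18.1% and 20.4% of all tested targets. They included Apoe (1.70-fold), Itm2c (1.62-fold), Scn2b (1.62-fold), Itm2b (1.59-fold), Sez6l2 (1.43-fold) and Rtn3 (1.42-fold). All of these turned on the deposited scale. There the median target changed by -1.18 (log2), so smaller rises turn by that shift alone. Apoe and Rtn3 did not pass after quantile normalization (limma adjusted p = 0.267 and 0.189), and without 1 region at a time Apoe was lost in 3 cases, Rtn3 in 5 and Itm2c in 1, MG-cKO male region 3 (adjusted p = 0.0651). Cst3, Clu and Apba1 did not pass. In females 10 of 39 were higher in MG-cKO than in BMM-cKO and 1 lower, against 11.0% and 3.54% of all tested targets. Apbb1 was 2.00-fold, Apba2 1.75-fold, Rtn3 1.66-fold, Sort1 1.51-fold and the sorting receptor gene Sorl1 1.49-fold higher, and Scn2b was higher by 0.59 on the log2 scale. Rtn3 did not pass after quantile normalization (adjusted p = 0.265) and Scn2b not on the deposited scale (adjusted p = 0.105), and both were lost with the groups fitted alone. With the 2 groups fitted alone, 5 genes of the list passed. Apoe, Cst3 and Clu did not pass.

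The members also differed in which targets varied with them from region to region. These correlations over 24 regions, after each group mean was removed, are descriptions of regions that share slides and depth. App and Aplp2 varied together (Pearson r = 0.83), App and Aplp1 less so (0.58), and Aplp1 and Aplp2 least of the 3 (0.30). Bace1 and Psen2 gave -0.33. The targets most like App among 9980 were the glycolytic genes Gapdh (0.94) and Tpi1 (0.92), then Grina (0.92), the glycolytic gene Aldoa (0.91) and the translation factor gene Eif1 (0.90). Those most like Aplp2 were Slc25a3 (0.89), Atp5b (0.89) and Ndufa4 (0.88) of mitochondrial energy metabolism, then Myl6 (0.87) and Fbxo44 (0.86).

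Aplp1 was most like Thra (0.92), a thyroid hormone receptor gene, Dynll2 (0.90), the synaptic vesicle gene Vamp2 (0.88), Ywhag (0.88) and Chic2 (0.87). For Bace1 the closest included Mreg (0.79), Dctn5 (0.74), Map7d2 (0.74) and Marchf2 (0.73), and for Psen2 Sri (0.78), Lonp2 (0.77), Tomm6 (0.75), Wdfy1 (0.74) and Elavl1 (0.74). With the mean of the 10 pan-neuronal markers Aplp1 correlated at 0.82 within groups, App at 0.35 and Aplp2 at 0.17. With the percentage of targets that exceeded 2 times the negative probe App correlated at 0.91, Aplp2 at 0.75 and Aplp1 at 0.58. With log2 recovered tags the within-group values were -0.49 for Aplp1, -0.30 for Aplp2 and -0.19 for App. BMM-cKO female region 3 had the lowest pan-neuronal sum of all regions (14.8) and an App level of 14.6.

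**Figure D5:**
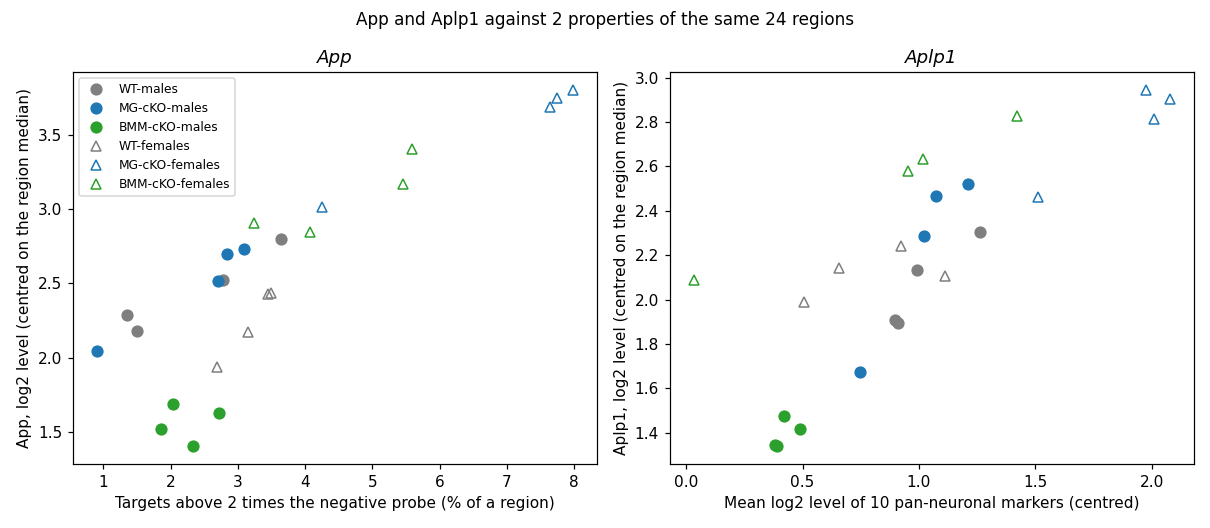
Centred log2 level (vertical axes) of App against the percentage of targets that exceeded 2 times the negative probe, and of Aplp1 against the mean centred log2 level of 10 pan-neuronal markers, in 24 regions; colours give the genotype, filled circles males and open triangles females. Both rise together (within-group r = 0.91 and 0.82), and BMM-cKO female region 3 lies at the far left of the Aplp1 panel.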

How the data were processed

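The deposited table holds signal values of 24 GeoMx regions, made by the authors from tag counts, as the values show: each is a whole number of tags times 1 factor per region, within 0.01 of a tag for at least 99.985% of values. The authors' scaling made the geometric mean of regions equal within each group (105.9 to 388.2 between groups), so the deposited scale is not comparable between groups. Tools for alignment and counting are not given in the sources used here. Here each region was centred on its median log2(value + 1) over the 9981 of 19962 targets whose scaled mean exceeded the median target. Limma 3.58.1 (R 4.3.3, lmFit and eBayes with trend) was fitted with 1 coefficient per group over 24 regions, and checked on simulated data. Tests of ratios were exact permutation tests (scipy 1.17.1). Alternatives were scaling, background, filter, pseudocount, trend, groups fitted and each region left out. Named genes are the members, up to 6 called and 3 uncalled pathway genes per comparison within a sex, and the 5 most alike targets. The members and lists were chosen with earlier results of these data known. Some genes that the rule names are not reported here.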

Additional observations from a re-analysis of the deposited data

Results flagged for a closer look

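For 7 contrasts the knockout effect differed between the sexes by limma's test of the difference itself, with sex and scan not separable. The MG-cKO effect was larger in females by 1.27 (log2) for App and 0.52 for Aplp2. The BMM-cKO change in females minus that in males was 1.73 for App, 1.08 for Aplp1, 0.54 for Aplp2, 0.30 for Bace1 and -0.29 for Psen2. These are differences between changes of opposite sign, negative in males for all but Psen2. By Dixon's test at the 95% level, which sets the gap of the highest or lowest region against the range of its group of 4, no member had an outlying region.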

How the results depend on the processing

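The deposited scale moves all targets of a group by the authors' factor, so a smaller change of opposite sign reverses on it whatever the target. On that scale these log2 changes reversed. Against WT they were 0.23 for Bace1 in MG-cKO males, 0.25 for Psen2 in MG-cKO females, 0.58 for Psen2 in BMM-cKO females, and in BMM-cKO males 0.61 for App, 0.83 for Aplp1, 1.25 for Aplp2 and 1.28 for Bace1. For MG-cKO against BMM-cKO males they were -0.25 for App, -0.35 for Aplp1, -0.99 for Aplp2 and -1.04 for Bace1. For females against males they were -0.16 for Psen2 in WT, -0.23 for Bace1 and -0.26 for Psen2 in MG-cKO, and -0.0634 for Aplp1, -0.74 for Aplp2 and -1.10 for Bace1 in BMM-cKO. The BMM-cKO interactions were -0.32 for Aplp2 and -0.56 for Bace1. Quantile normalization reversed Aplp1 in MG-cKO against WT females (-0.18) and Aplp2 in females against males of MG-cKO (-0.0435), and the cause was not tested.

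Counts of members past the threshold also moved, and not every smaller move is listed here. On the deposited scale they were 3 for MG-cKO against WT males, 5 for females, 5 for BMM-cKO against WT females, 1 between the female knockouts, 2 for the sexes in WT and 3 for the BMM-cKO interaction. Quantile normalization left 0 for MG-cKO against WT females, 0 for the sexes in MG-cKO and 0 for the MG-cKO interaction. With the negative probe subtracted, where 3 members could be tested, counts were 2 for BMM-cKO against WT males, 0 for the sexes in WT and 3 for the BMM-cKO interaction. With no filter they were 1 for BMM-cKO against WT males and 1 for the MG-cKO interaction. With no intensity trend they were 1 for BMM-cKO against WT females, 1 between the female knockouts and 0 for the sexes in WT. Scaling by the negative probe gave 0 for the sexes in WT and 5 in MG-cKO, and fitting the groups alone gave 0 in WT. A pseudocount of 0.1 changed no count, and a pseudocount of 10 added Psen2 between the male knockouts (-0.18, limma adjusted p = 0.047). Leaving out 1 region gave 2 to 4 for BMM-cKO against WT males and 0 to 1 for females. For the sexes it gave 0 to 2 in WT and 1 to 3 in MG-cKO. The MG-cKO and BMM-cKO interactions had 1 to 3 and 3 to 5. MG-cKO against WT females had 3 to 4, and MG-cKO against BMM-cKO males 2 to 3.

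No paired analysis was possible because replicate numbers follow the order of deposition and pair nothing. The planned count tests were not run, since the values were used as signal. Bace1 and Psen2 lay near background, which limits what their changes can show.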
